A study of Mus musculus with 16 samples.

Results

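The 54 genes described here encode nucleolar factors that build ribosomes. They are a listed set (polymerase I regulators, snoRNP proteins and maturation factors of both subunits), all found by symbol in the RefSeq GRCm38.p6 gene table among 21887 protein-coding genes on chromosomes 1 to 19, X and Y. Their role groups are 7 genes of polymerase I and the nucleolar scaffold, 7 of box C/D and box H/ACA snoRNPs, 24 of the small-subunit processome and 40S maturation, and 16 of 60S maturation.

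H3K27ac and H3K4me3, acetylation and trimethylation marks on histone H3 found at active promoters, were mapped by ULI-NChIP-seq, a native chromatin immunoprecipitation for small numbers of cells, in whole mouse embryos at the late 2-cell stage, 36 h after fertilization. All embryos had been injected as zygotes, the control group with H2O and the mutant group with mRNA of a mutant Hdac1, a histone deacetylase. The mutation, the mouse strain, the number of embryos pooled and the state of the embryos' own Hdac1 are not given in the sources used here. For each mark and group there were 2 immunoprecipitated and 2 input libraries, 16 in all, but a single peak list covered both immunoprecipitated libraries of a group. Every difference below is therefore a difference between 2 lists with no replicate error, read depth behind the peaks is unknown, and no test was made; the share over all genes stands beside the main counts of members. "Lost" and "gained" mean that only the control list, or only the mutant list, had a peak.

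The nucleolus forms around the ribosomal RNA genes, which RNA polymerase I transcribes into a long precursor. Small nucleolar ribonucleoproteins (snoRNPs) modify that precursor, the small-subunit processome folds and cleaves it around the U3 snoRNA, and further factors mature the 40S and 60S subunits. Mouse embryos start to transcribe their own genome by the 2-cell stage, and their nucleoli mature from precursor bodies in the cleavage stages.

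In the control lists nearly all of these genes carried both marks. A gene was counted as marked when a peak overlapped, by at least 1 bp, a window of 2 kb on each side of either gene end. By that count 52 of 54 members had H3K27ac in the control list (54.8% of all genes) and 42 had it in the mutant list (58% of all genes). H3K4me3 marked 54 members in control (74.7% of all genes) and 53 in mutant (72.9% of all genes). Only Rrs1, a 60S assembly factor, lacked H3K27ac in both lists.

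H3K27ac was lost at 11 members, or 21.2% of the 52 marked in control, close to the 22.7% of all genes marked in control. It was gained at 1 of the 2 unmarked members, Nol6, a small-subunit processome protein (all genes 34.6%). H3K4me3 was lost at 1 of 54 members (1.85%, all genes 8.94%), Ddx18, a helicase of 60S assembly, and no member could gain it because all were marked in control (all genes 19.2% of those unmarked). Of the 52 members with both marks in control, 41 kept both (78.8%, all genes 76.3%), 10 had H3K4me3 alone in mutant (19.2%, all genes 18%) and Ddx18 had neither (1.92%, all genes 1.98%), so these shares were near those of all genes. Of the 2 with H3K4me3 alone in control, Nol6 had both in mutant (all genes 44.1%) and Rrs1 did not change (all genes 39.8%).

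The covered length differed more than the presence. The gene-end windows of the 54 members spanned 421.495 kb, of which H3K27ac peaks covered 273.2 kb in control and 165.0 kb in mutant, a ratio of 0.604 against 0.860 over all genes. H3K4me3 peaks covered 272.5 kb and 247.1 kb, a ratio of 0.907 against 1.03 over all genes. H3K27ac covered fewer bases in mutant at 39 members (72.2%, all genes 37.1%), more at 11 (all genes 32%) and equally many at 4 (all genes 30.9%). For H3K4me3 the counts were 24 fewer (all genes 32.6%), 22 more (all genes 41.6%) and 8 equal (all genes 25.7%), and fewer and more changed order, to 22 and 23, in the wider 50 percent of each list. The share over all genes counts every gene, marked or not, so a set that is nearly all marked has more room to fall. Related gene sets with the same high control marking give a closer comparison. The ratio of H3K27ac-covered length was 0.646 over 104 other ribosome biogenesis genes and 0.536 over 86 cytosolic ribosomal protein genes, so the value for the nucleolar factors lay between them.

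**Figure D1:**
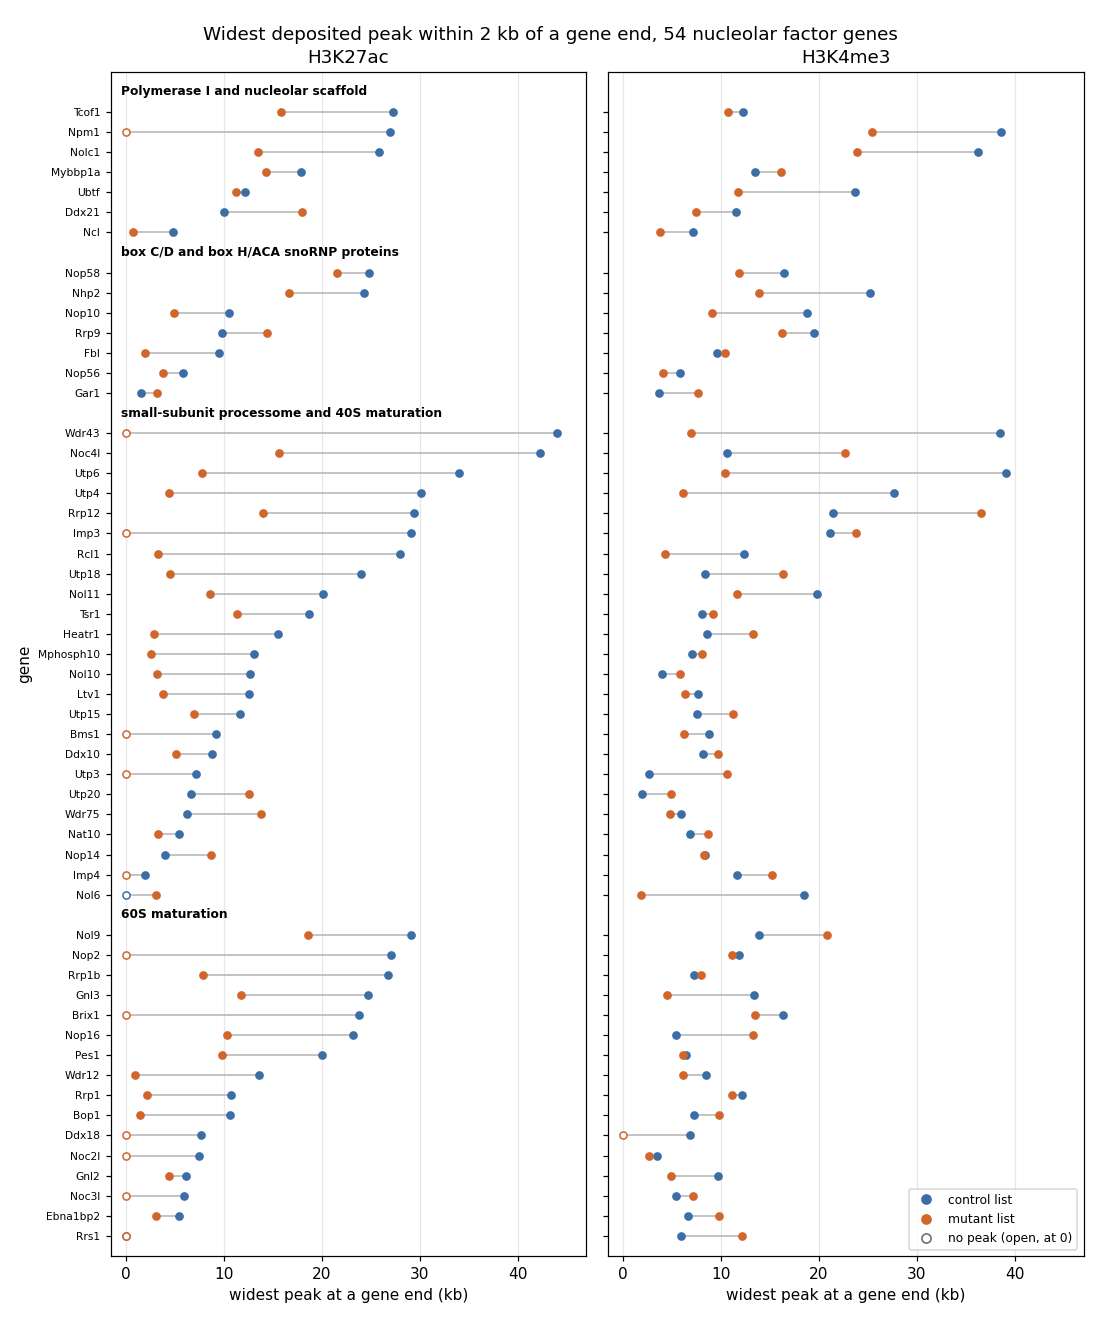
Width of the widest deposited peak at the gene ends of each of the 54 members, in control and mutant lists, for H3K27ac and H3K4me3 (linear axis in kb; a line joins the lists, and open circles at 0 mark no peak). H3K27ac points lie further left in mutant at most members, with medians of 12937 bp and 7393.5 bp, whereas 29 H3K4me3 points are narrower and 24 wider in mutant.

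Peaks at these genes were broad in control. Widths below are those of the widest peak in each list, which need not lie at the same place in both. Marked members had a median widest H3K27ac peak of 12937 bp (1602 to 43982 bp) in the control list and 7393.5 bp (740 to 21582 bp) in the mutant list. The H3K4me3 medians were 9199.5 and 9779 bp, and the order turned with 5 kb windows (11103.5 and 9911 bp), with common limits on joining and width (10196 and 9779 bp) and with the start end only (8094 and 8088 bp). Of the 41 members with H3K27ac in both lists, 35 had a narrower widest peak in mutant (all genes 67.2%) and 6 a wider one (all genes 32.8%). In 21 of them (51.2%, all genes 41.5%) it was at least 2-fold narrower and in 3 at least 2-fold wider (all genes 15.7%), with a median ratio of 0.489 against 0.619 over all genes. For H3K4me3, 29 of 53 members were narrower (all genes 37.4%) and 24 wider (all genes 62.6%), 8 at least 2-fold narrower (all genes 10.5%) and 6 at least 2-fold wider (all genes 23.7%), but 5 and 6 with the start end only and 7 and 7 with 1 kb windows. The median ratio was 0.936, against 1.22 over all genes. The widest peaks of the 2 lists shared no base at 19 of 41 members for H3K27ac (46.3%, all genes 36.2%) and at 11 of 53 for H3K4me3 (20.8%, all genes 18%), so there the widths compare different places. Among the 22 members whose widest H3K27ac peaks did share a base, 19 were narrower in mutant (86.4%, all genes 69.7%), with a median ratio of 0.551 against 0.604. For H3K4me3, 20 of 42 were narrower (47.6%, all genes 36.1%), and the median ratio of 1.09 lay on the other side of 1 from that over all 53.

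A widest H3K27ac peak over 5 kb stood at 48 members in control (all genes 33.8%) and 23 in mutant (all genes 25.3%). The same count for H3K4me3 was 49 (all genes 39%) and 44 (all genes 47.6%). Over 10 kb, H3K27ac counts were 34 in control (all genes 22.3%) and 16 in mutant (all genes 9.84%), and H3K4me3 counts were 25 (all genes 18.5%) and 25 (all genes 24.2%). H3K27ac filled the whole windows of 9 members in control (all genes 4.82%) and of 4 in mutant (all genes 1.67%), and H3K4me3 of 4 (all genes 3.86%) and 8 (all genes 5.35%). Many of the widest control peaks, of any width, overlapped several peaks of the mutant list. Of the 52 widest control H3K27ac peaks, 31 held more than 1 mutant peak (59.6%, all genes 39.6%) and 11 held none (21.2%, all genes 29.4%). The median share of their bases under mutant peaks was 44.8%, against 43.6% over all genes marked in control. More than 1 mutant H3K27ac peak was held at 49.5% of the other ribosome biogenesis genes marked in control and at 75.6% of ribosomal protein genes. For H3K4me3, 21 of 54 widest control peaks held more than 1 mutant peak (all genes 20.2%), and the median share covered was 87.4%.

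Start sites, given by the RefSeq promoter table, could be placed for 45 of the 54 members. Npm1, Fbl, Bop1, Utp6, Nol6, Rrp12, Rrs1, Tcof1 and Gnl2 had no entry. The 250 bases upstream of 6 starts, chosen by peak width, are shown. Whether these sequences bear on the peaks was not tested. Wdr43, Imp3, Nop2 and Brix1 are the members with a start entry that lost H3K27ac from the widest control peaks. Nop58 and Nol9 kept both marks at their gene ends and had the widest mutant H3K27ac peaks. Sequences run 5′ to 3′ on the gene's strand and end at the base before the start, and capitals mark each GC box (GGGCGG or its complement CCGCCC) and each E-box (CACGTG). On GRCm38.p6 they lie at chr17:71615965-71616214 (plus strand) for Wdr43, chr9:56937250-56937499 (plus) for Imp3, chr6:125131633-125131882 (plus) for Nop2, chr15:10485938-10486187 (minus) for Brix1, chr1:59684756-59685005 (plus) for Nop58 and chr4:152039071-152039320 (plus) for Nol9.
Wdr43: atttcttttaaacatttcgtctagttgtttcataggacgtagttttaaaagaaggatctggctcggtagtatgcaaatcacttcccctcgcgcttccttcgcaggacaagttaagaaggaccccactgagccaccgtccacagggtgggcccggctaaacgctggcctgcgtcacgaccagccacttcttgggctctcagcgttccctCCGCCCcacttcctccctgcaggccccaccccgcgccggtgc
Imp3: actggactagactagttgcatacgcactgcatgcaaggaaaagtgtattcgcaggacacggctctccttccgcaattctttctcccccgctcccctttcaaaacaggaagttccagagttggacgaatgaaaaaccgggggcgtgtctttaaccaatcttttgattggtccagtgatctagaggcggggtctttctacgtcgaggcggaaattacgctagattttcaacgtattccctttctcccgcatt
Nop2: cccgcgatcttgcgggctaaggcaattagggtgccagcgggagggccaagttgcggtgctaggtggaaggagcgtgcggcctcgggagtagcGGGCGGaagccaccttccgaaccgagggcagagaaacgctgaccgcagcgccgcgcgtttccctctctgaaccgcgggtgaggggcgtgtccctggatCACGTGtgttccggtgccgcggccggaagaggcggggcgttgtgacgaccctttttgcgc
Brix1: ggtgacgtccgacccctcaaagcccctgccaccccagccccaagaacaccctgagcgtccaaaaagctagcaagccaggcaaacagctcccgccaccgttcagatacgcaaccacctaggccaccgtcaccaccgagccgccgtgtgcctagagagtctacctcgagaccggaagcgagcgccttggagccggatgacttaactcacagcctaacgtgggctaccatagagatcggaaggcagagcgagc
Nop58: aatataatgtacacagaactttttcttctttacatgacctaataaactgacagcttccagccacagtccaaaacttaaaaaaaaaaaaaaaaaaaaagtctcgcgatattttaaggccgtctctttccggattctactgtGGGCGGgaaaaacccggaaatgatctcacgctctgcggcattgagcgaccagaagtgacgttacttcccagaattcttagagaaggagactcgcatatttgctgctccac
Nol9: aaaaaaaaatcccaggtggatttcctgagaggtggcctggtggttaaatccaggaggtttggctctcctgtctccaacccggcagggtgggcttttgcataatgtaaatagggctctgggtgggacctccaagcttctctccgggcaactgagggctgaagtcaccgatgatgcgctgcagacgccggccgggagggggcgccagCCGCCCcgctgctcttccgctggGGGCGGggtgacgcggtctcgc

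No capitals appear for Imp3 and Brix1, so these 2 letter strings are absent from their 250 bases. Each promoter in the table runs from 250 bases before to 50 after the start, and both strands were searched. The E-box CACGTG occurred in 11 of 45 members (24.4%) and in 7.91% of 17492 promoters, and the ETS-type word CCGGAAGT in 12 (26.7%) and 5.28%. In 88 promoters of other ribosome biogenesis genes these shares were 18.2% and 27.3%. The GC box was present in 32 members (71.1%), in 61.4% of the other ribosome biogenesis genes and in 46.3% of all promoters, and the TATA word TATAAA in 2 (4.44%), 7.95% and 13.3%. A median of 22 CpG dinucleotides lay in a member's promoter, against 13 over all. An E-box was present at 6 of 26 whose start base lost the mark and at 4 of 15 that kept it, and the ETS-type word at 8 of 26 and 3 of 15. A match is a string of letters, not evidence of a bound factor.

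At the start base itself, H3K27ac lay over 41 of 45 members in control (all genes with an entry 35.2%) and over 16 in mutant (all genes 27.8%). H3K4me3 lay over 45 (all genes 66.3%) and 42 (all genes 62.4%). H3K27ac was thus lost from the start base at 26 of 41 members, or 63.4%, against 50% of all genes that had it in control. It was gained at 1, Gar1, a core H/ACA protein (all genes 15.8%). The same loss was 33 of 72 (45.8%) over the other ribosome biogenesis genes and 35 of 64 (54.7%) over ribosomal protein genes. H3K4me3 was lost from the start base at Ddx18, Brix1 and Tsr1 (all genes 11.7%). Both marks lay over the start of 41 members in control (all genes 33.5%) and 15 in mutant (all genes 24.3%), and of 64 and 29 of 65 ribosomal protein genes. H3K4me3 alone lay over 4 (all genes 32.7%) and 27 (all genes 38.2%) of the members.

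**Figure D2:**
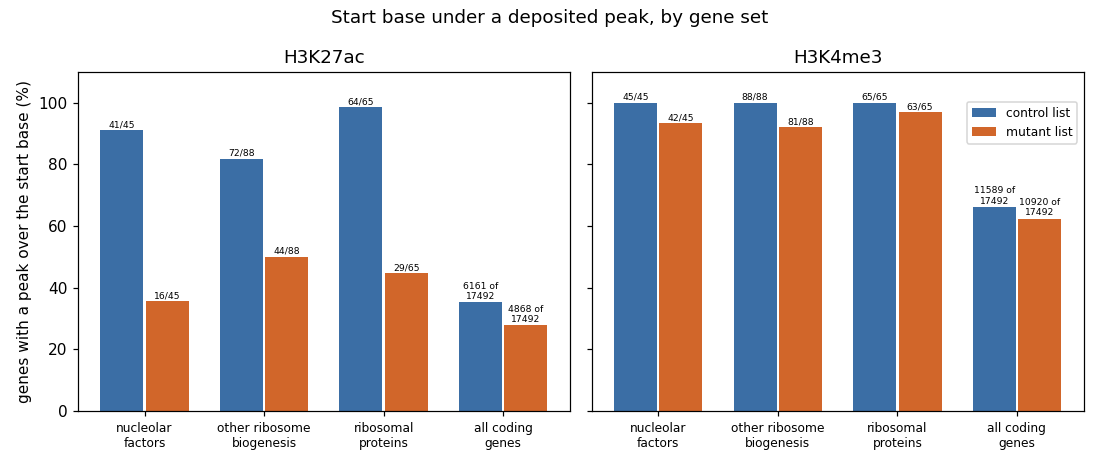
Percentage of genes whose annotated start base lies under a deposited peak, for control and mutant lists of each mark, in the nucleolar factors, other ribosome biogenesis genes, cytosolic ribosomal protein genes and all coding genes with a start entry (counts above bars). H3K27ac bars fall from 41 to 16 of 45 nucleolar factors, and H3K4me3 bars from 45 to 42.

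The size of the difference varied with the distance from the start. Within 2 kb on each side of the gene end that is the start, all 45 members had H3K27ac in control (all genes 45.6%) and 29 had it in mutant (all genes 44.9%). The 16 losses are 35.6% of 45, near the 34.4% of all genes marked there. H3K4me3 in this window went from 45 (all genes 71.1%) to 43 (all genes 67.8%), with Ddx18 and Brix1 lost (all genes 11.3%). At the far gene end, H3K27ac marked 35 in control (all genes 36.7%) and 29 in mutant (all genes 37.7%), with 11 lost (31.4%, all genes 38.9%). H3K4me3 at the far end marked 30 (all genes 40.2%) and 22 (all genes 39.2%), with 12 lost (40%, all genes 28.2%). The control H3K27ac profile of the members was highest near the start and the mutant H3K27ac profile was not. Over all genes both H3K27ac profiles were highest 200 bp downstream of the start, at 36.2% in control and 28.9% in mutant, against 23.9% and 19.6% at 10 kb downstream. In mutant, 44.4% of members were under an H3K27ac peak at 1 kb upstream, 35.6% at the start and 51.1% at 800 bp downstream. Over the 10 kb on each side, read every 200 bp, mutant H3K27ac values ran from 31.1% to 53.3% and control values from 44.4% to 97.8%. At the same 3 places control H3K27ac values were 80%, 91.1% and 93.3%. Away from the start the lists were closer, at 51.1% in control and 33.3% in mutant 10 kb downstream. For the 26 members that lost the start base, the nearest mutant H3K27ac peak was a median of 2778.5 bp away (89 to 18788 bp), within 2 kb at 11 of them (42.3%, all genes 40.1%). At 16 of the 26 a mutant peak still stood elsewhere in the gene-end windows (61.5%, all genes 67.2%).

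**Figure D3:**
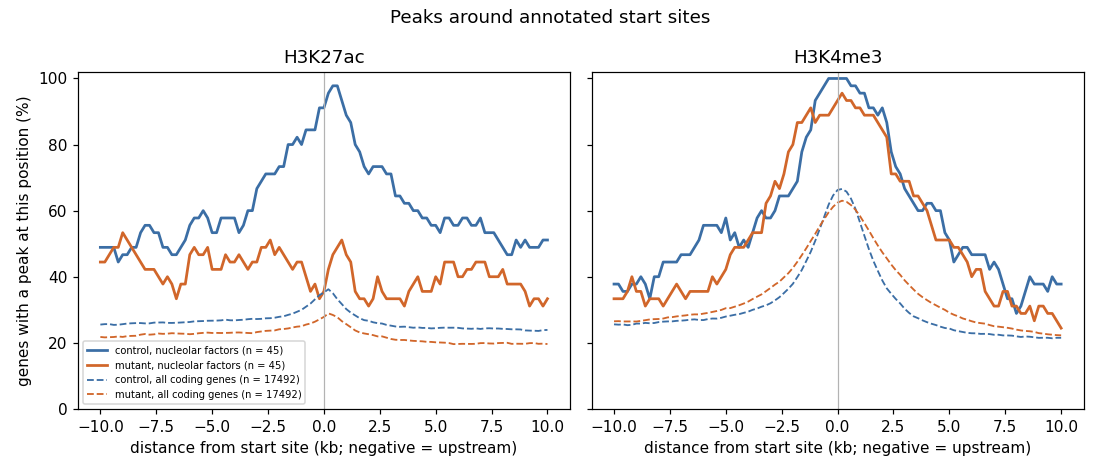
Percentage of genes under a deposited peak by distance from the start base in kb (negative values upstream), for control and mutant lists of each mark. Solid lines show the 45 members and dashed lines all 17492 coding genes with a start entry. At the start the members' control H3K27ac line is at 91.1% and their mutant line at 35.6%, while their H3K4me3 lines are at 100% and 93.3%.

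Among polymerase I and scaffold genes, Npm1, which encodes the nucleolar chaperone nucleophosmin (chr11:33152498-33164142), had a widest H3K27ac peak of 26996 bp in control and none at its ends in mutant. The nearest mutant peak to either gene end lay 2206 bp away, 7.06% of the gene with 2 kb on each side was under mutant H3K27ac, and mutant peaks covered 79.0% of the bases of that control peak. The call at Npm1 therefore concerns the windows rather than the whole domain. H3K4me3 at Npm1 went from 38576 to 25470 bp. Ncl, encoding nucleolin, an RNA-binding nucleolar protein, went from 4857 to 740 bp of H3K27ac and from 7128 to 3782 bp of H3K4me3. Ubtf, the polymerase I factor UBF, had H3K27ac peaks of 12170 and 11231 bp at its ends and H3K4me3 peaks of 23649 and 11736 bp. Its 2 widest H3K27ac peaks shared no base, so nearly equal widths marked different places.

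Nolc1, a snoRNP chaperone, had H3K27ac peaks of 25880 and 13477 bp, and its mutant H3K4me3 peak of 23927 bp was among the 3 widest of the members in that list. Ddx21, a helicase acting in ribosomal RNA synthesis and processing, was 1 of the 6 members with a wider widest H3K27ac peak in mutant, 18047 against 10079 bp, at places sharing no base. Mybbp1a, a polymerase I cofactor, and Tcof1, which encodes treacle, had H3K27ac peaks of 17884 and 27239 bp in control and 14348 and 15841 bp in mutant. For the 7 genes together, H3K27ac-covered length had a ratio of 0.594 and H3K4me3 a ratio of 0.908. The start base was under H3K27ac at 5 of 5 with an entry in control and 4 in mutant, with Ncl lost (20%, all genes 50%).

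All 7 snoRNP genes kept both marks at their ends, as did 76.3% of all genes with both in control. Fbl, the box C/D 2′-O-methyltransferase fibrillarin, had H3K27ac peaks of 9483 bp in control and 1984 bp in mutant, and the mutant peak reached only 138 of 8000 window bases and shared none with the control peak. H3K4me3 at Fbl was 9645 and 10473 bp. Nop56 and Nop58, paired scaffold proteins of the same particle, had H3K27ac peaks of 5872 and 3866 bp, and of 24823 and 21582 bp, in control and mutant. The Nop58 peak was the widest of any member in the mutant list and lay at the far end of the gene. Its start base was uncovered, in a gap that reached 660 bp upstream and 89 bp downstream.

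Gar1 was the only snoRNP gene with a wider widest peak of both marks, 1602 and 3237 bp for H3K27ac and 3716 and 7681 bp for H3K4me3. The H/ACA proteins Nop10 and Nhp2 went from 10600 to 4904 bp and from 24307 to 16674 bp of H3K27ac, and Rrp9, a U3-specific protein, from 9825 to 14383 bp, with no base shared between the 2 peaks at any of the 3. H3K27ac-covered length of the group had a ratio of 0.712 and H3K4me3 of 1.04. At the start base, 3 of the 4 snoRNP genes with H3K27ac in control lost it, Nop56, Nop58 and Nhp2 (75%, all genes 50%). Nop56, Nop58, Ncl, Wdr43, Gnl3 and Tsr1 hold 18 snoRNA genes inside their bodies, so peaks there lie over host genes of the RNAs that these particles contain.

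Of the 23 small-subunit genes marked in control, 5 lost H3K27ac (21.7%, near the 22.7% of all genes): Wdr43, Utp3, Bms1, Imp3 and Imp4. Wdr43, a member of the UtpA complex that binds the nascent precursor, had the widest control H3K27ac peak of all members, 43982 bp, and no mutant peak at its ends. Mutant peaks covered 57.6% of that control peak in 5 pieces, the nearest 4171 bp from a gene end. Its widest H3K4me3 peaks were 38446 and 6945 bp, and 8 mutant peaks together covered 76.6% of the former. Imp3 and Imp4, U3-associated proteins that help U3 pair with the precursor, had control H3K27ac peaks of 29158 and 1956 bp, and mutant H3K4me3 peaks of 23778 and 15205 bp against 21120 and 11612 bp in control.

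Utp3, another processome protein, carried 7214 bp of H3K27ac in control and had the highest H3K4me3 width ratio of the members, 3.93, from widest peaks of 2695 and 10595 bp that shared no base. At Bms1, a GTPase of the processome, the control peak spanned 9268 bp, and the mutant peak nearest to a gene end was 10098 bp from it. Rcl1, its partner, kept a peak but its widest peaks were 27973 and 3350 bp (8.35-fold narrower) at places sharing no base, and mutant peaks covered 6.83% of the former. Nol6 moved the other way for H3K27ac at its ends, from none to 3112 bp, but a control peak of 18467 bp lay 3090 bp from a gene end. Its H3K4me3 went from 18464 to 1862 bp, the lowest H3K4me3 ratio of the members (0.101). These H3K4me3 peaks shared no base, and mutant H3K4me3 covered 90.9% of the control peak.

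The widest peak was broad in control and narrower in mutant at Noc4l (42270 to 15634 bp of H3K27ac), Utp6 (34028 to 7810 bp, sharing no base) and Utp4 (30118 to 4451 bp). Mutant peaks of any width together covered 89.0%, 8.33% and 53.2% of those control peaks. H3K4me3 at these processome genes went from 10648 to 22621 bp, from 39115 to 10436 bp and from 27689 to 6165 bp. At Utp6 and Utp4 the widest H3K4me3 peaks of the 2 lists lay at different places, and mutant H3K4me3 still covered 83.3% and 78.2% of the control peaks. The widest mutant peak was the wider one at Wdr75 (6317 to 13821 bp), Nop14 (4001 to 8690 bp) and Utp20 (6689 to 12569 bp) for H3K27ac, with no common base at Nop14, and H3K4me3 at Utp20 went from 1933 to 4926 bp. Rrp12, an export factor of ribosomal subunits, had the widest mutant H3K4me3 peak, 36501 bp against 21406 bp in control. The other 10 genes of the group, Ddx10, Heatr1, Ltv1, Mphosph10, Nat10, Nol10, Nol11, Tsr1, Utp15 and Utp18, all had a narrower widest H3K27ac peak in mutant, sharing no base with the control one at Ddx10, Ltv1, Mphosph10 and Nol10. Their widths ran from 5433 to 23997 bp in control and from 2599 to 11355 bp in mutant. The widest H3K4me3 peak was wider at 8 of the 10, but at Tsr1 with no base shared. In the whole group, the widest H3K27ac peak was narrower at 15 of 18 genes marked in both lists (83.3%, all genes 67.2%). For H3K4me3 it was wider at 14 of 24 (58.3%, all genes 62.6%). H3K27ac lay over the start base at 19 of 21 in control (all genes 35.2%) and 6 in mutant (all genes 27.8%), a loss of 68.4% (all genes 50%). The ratio of covered length in the group was 0.699 for H3K27ac and 0.976 for H3K4me3.

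The 60S group had the lowest H3K27ac ratio of the 4 groups, 0.434, and the lowest H3K4me3 ratio, 0.750. Its H3K27ac-marked genes went from 15 to 10 of 16, with Nop2, Noc2l, Noc3l, Ddx18 and Brix1 lost (33.3% of 15, all genes 22.7%). Starts under H3K27ac went from 13 to 4 of 13, a loss of 69.2% (all genes 50%). At Nop2, a methyltransferase of 28S ribosomal RNA, control H3K27ac spanned 27118 bp, of which mutant peaks covered 6.6%. Its widest H3K4me3 peaks, 11864 and 11103 bp, shared no base, and mutant H3K4me3 covered 64.7% of the control peak. The control H3K27ac peak of Brix1, a 60S assembly factor, spanned 23849 bp and filled all 8000 window bases, and no base of it was under a mutant peak. Its H3K4me3 peak of 13457 bp in mutant reached 145 window bases, against 7731 in control.

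Noc2l and Noc3l, counterparts of a yeast pair that acts in pre-60S transport, carried 7465 and 6009 bp of H3K27ac in control, and had mutant H3K4me3 peaks of 2633 and 7139 bp against 3475 and 5376 bp. Ddx18 had 7701 bp of H3K27ac and 6884 bp of H3K4me3 in control and neither in mutant, and its nearest mutant H3K27ac peak lay 2724 bp from a gene end. It was the only member whose ends were bare of both marks in a list.

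Pes1, Bop1 and Wdr12 form the PeBoW complex of 60S maturation and differed in degree. Wdr12 had the lowest H3K27ac ratio of all members, from 13649 to 934 bp (14.6-fold narrower), but these peaks shared no base, and mutant H3K27ac covered 38.2% of the control peak. Bop1 had peaks of 10647 and 1431 bp that shared no base, and Pes1 went from 20053 to 9814 bp; mutant peaks covered 1.64% and 85.0% of the control peaks. H3K4me3 was 8529 and 6163 bp at Wdr12, 7220 and 9779 bp at Bop1, and 6423 and 6154 bp at Pes1. Nol9, a polynucleotide kinase of ribosomal RNA processing, had widest H3K27ac peaks of 29106 bp in control and 18662 bp in mutant, but they overlapped little, and mutant peaks covered 24.8% of the control peak. Gnl3, encoding nucleostemin, went from 24737 to 11750 bp of H3K27ac and had widest H3K4me3 peaks of 13372 and 4538 bp that shared no base. Nop16 went from 23174 to 10370 bp of H3K27ac and from 5470 to 13288 bp of H3K4me3. H3K27ac at Ebna1bp2, Gnl2, Rrp1 and Rrp1b, the other 60S genes marked in both lists, spanned 5416 to 26731 bp in control and 2161 to 7865 bp in mutant, with a base shared at Rrp1 alone. Rrs1, without H3K27ac, had 5930 bp of H3K4me3 in control and 12115 bp in mutant.

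**Figure D4:**
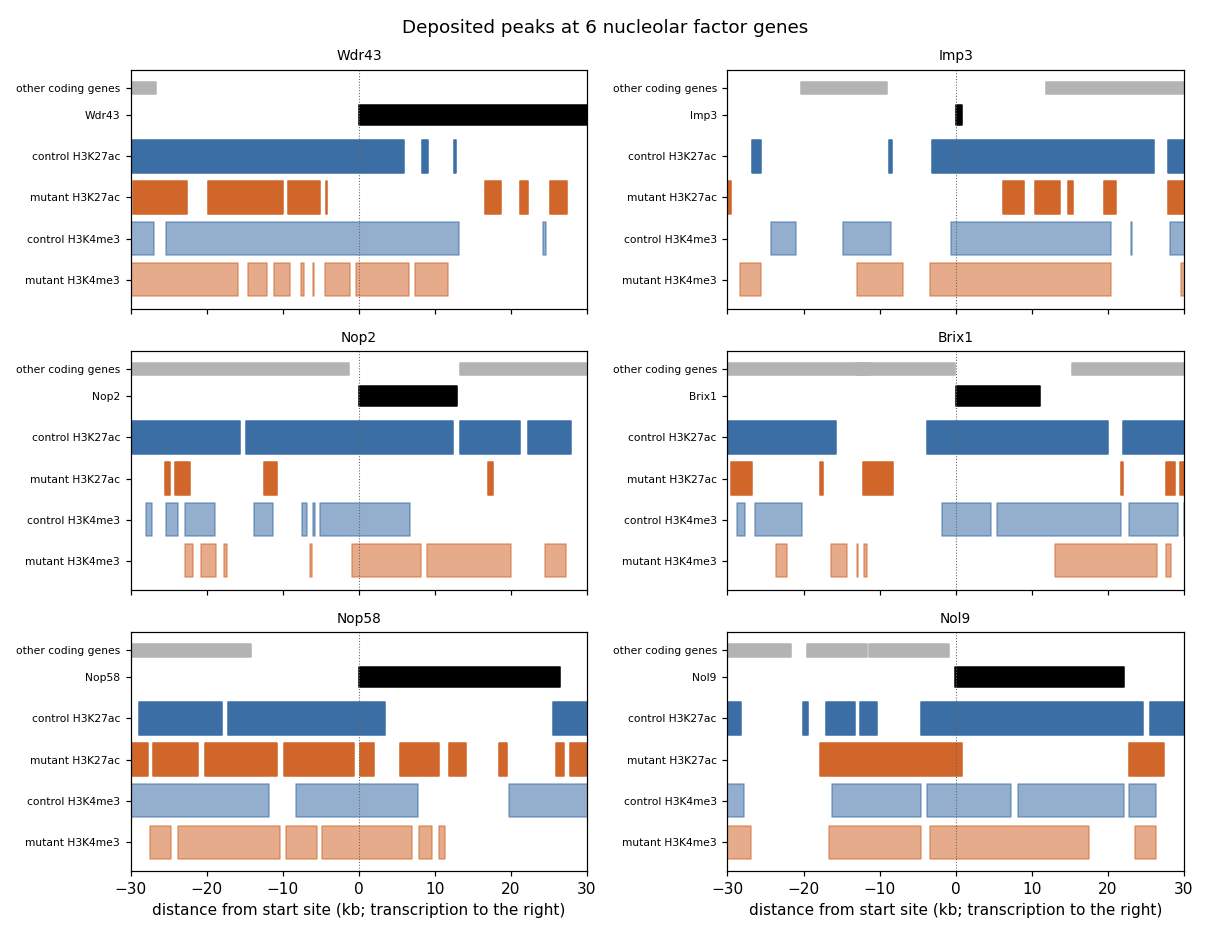
Deposited peaks of the 4 lists around the start of 6 members (x axis: distance from the start in kb, transcription to the right), with the gene in black and other coding genes in grey. Wdr43, Imp3, Nop2 and Brix1 have no mutant H3K27ac peak at the gene ends, but the far end of Wdr43, 42816 bp from the start, lies outside the plot. The Nol9 start lies in a mutant H3K27ac peak of 18662 bp, and the Nop58 start lies between 2 mutant peaks.

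Fewer bases carried both marks in the mutant lists. Bases under both marks in the windows summed to 223.2 kb in control and 108.5 kb in mutant. The share of H3K4me3-covered bases that were also under H3K27ac went from 81.9% to 43.9%, against 52.5% and 39.6% over all genes. In the 60S group it went from 82.1% to 23.3%. The same share fell from 80.3% to 49.7% over other ribosome biogenesis genes and from 92.7% to 50.4% over ribosomal protein genes. Both marks stood at the ends of 52 members in control (all genes 50.9%) and 42 in mutant (all genes 51.4%). In 7 of the 42, Wdr12, Bop1, Utp20, Nol10, Rrp1b, Ddx10 and Gnl2, the peaks of the 2 marks shared no window base in mutant, a share of 16.7% that is near the 15.4% of all genes with both marks.

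Position limits how far a peak belongs to a member. Another coding gene had an end within 2 kb of an end of 30 members, and the widest control H3K27ac peak touched more than 1 coding gene at 27. No peak was shared by any pair of the members, which lay on 18 chromosomes. The lists differed as wholes: H3K27ac had 77349 peaks in control and 122487 in mutant, of median width 1177 and 1053 bp, and H3K4me3 had 86798 and 85780, of 1681 and 1748 bp. They covered 251.6 and 245.9 Mb for H3K27ac and 257.0 and 279.4 Mb for H3K4me3. More and narrower H3K27ac peaks thus covered nearly the same length in mutant, and the part of list length and peak joining in the narrower peaks of the members was not tested beyond the settings given in the closing section. All 7 marker genes of the 2-cell stage had H3K27ac in both lists, and 6 had H3K4me3 in control and 7 in mutant. Of 7 marker genes of cumulus or granulosa cells, which can adhere to embryos, 2 had it in control and 4 in mutant, and 6 and 7 had H3K4me3; a peak is not expression, and the part of such cells was not tested.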

How the data were processed

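Start and end positions of peaks, with no height or score, were used as the authors deposited them, in 4 lists of 3 columns. The submitters' processing notes name Trimmomatic, Bowtie2, SAMtools, Picard, MACS2 and deepTools and the builds mm10 and GRCm38; settings, and whether libraries were pooled, are not given in the sources used here. Peaks on chromosomes 1 to 19, X and Y were kept. The smallest gap between peaks was 681 bp in the control and 602 bp in the mutant H3K27ac list, and 684 and 734 bp for H3K4me3.

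Genes came from RefSeq GRCm38.p6 and starts from its promoter table (45 of 54 members). Python 3.11.15, numpy 2.4.6 and matplotlib 3.10.9 were used, and the interval functions were tested on simulated data. The members, gene lists and roles were chosen with earlier results of these data known, and the start-base measure and the comparison of widest peaks that share a base were added after the lists were seen. Named genes were all members that lost or gained a mark, the 5 lowest and 5 highest width ratios per mark, the 3 widest peaks per list, and Npm1, Ncl, Fbl, Nop56, Nop58 and Ubtf; others were named after their values were seen. Of 107 other ribosome biogenesis genes listed, 104 were matched (not Polr1f, Polr1g and Polr1h). Alternatives changed the window, gene end, peak joining, minimum width, list length and overlap.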

Additional observations from a re-analysis of the deposited data

How the results depend on the processing

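H3K27ac losses rose to 17 members with 1 kb windows (27.8% of all genes marked in control) and fell to 6 with 5 kb windows (14.2%). With 5 kb windows Npm1, Nop2, Wdr43, Ddx18 and Imp4 had a mutant peak; under the other settings all of the 11 that could be tested remained lost. Gained H3K27ac was 0 with 5 kb windows and with the start end only. H3K4me3 losses were 2 with 1 kb windows (all genes 9.80%), with the start end only (all genes 11.3%), and when 200 bp of window had to be covered (all genes 9.02%). With the start end only (45 members), mutant H3K27ac peaks over 5 kb stood at 15 members, H3K4me3 covered fewer bases at 15 and more at 12, and its widest peak was 2-fold narrower at 5. Merging peaks under 1 kb apart raised the median widest control H3K27ac peak to 19710.5 bp. The order of the mutant and control H3K4me3 medians, and of counts of H3K4me3 higher and lower members, turned under some alternatives, as given beside those values. The median H3K27ac peak was narrower in mutant under each alternative, and the ratio of covered length kept to 0.495 to 0.646 for H3K27ac and 0.889 to 0.983 for H3K4me3. Read depth was not analysed here, so a peak under one list's threshold and an absent mark cannot be told apart. No paired analysis was possible because the lists carry no values per library, and no replicate could be left out for the same reason. Over the start base, H3K27ac losses were 23 to 26 under the alternatives. Shares over all genes under the alternatives were computed for losses at gene ends only.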
